A study of Canis lupus familiaris and Eptesicus fuscus and Equus caballus with 6 samples.

Results

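Satellites are repeat families that stand in long tandem arrays, and the 11 satellite models described here are the entries of the horse and dog repeat expression files whose class name begins with Satellite. The horse file held 5 of them among 986 models and the dog file 6 among 955, so that satellites were 11 of 1941 models, with 9 distinct names. The series set out to relate piRNAs to transposable elements in the testes of horse, dog and big brown bat (Eptesicus fuscus). The horse group was adult testis of Equus caballus and the dog group adult testis of Canis lupus familiaris, with no treatment named and 1 mRNA library per species. Tissue was snap frozen and total RNA was taken with TRIzol, and the labels call these libraries the mRNA fraction without saying how it was selected. The 511 models of the bat file included 0 with satellite in the name or class. The files hold repeat models and no genes, so the tissue could not be checked against testis markers.

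Satellite DNA is known as the main component of many centromeres and of the heterochromatin beside them, and is also found near chromosome ends. In mammals it is usually packed into silent chromatin, yet satellite transcripts are known from several tissues, and transcripts of centromeric satellites are known to take part in the assembly of centromeric chromatin. The horse is known for a natural centromere that lacks satellite DNA, beside many satellite-rich ones. Satellites are not transposable elements: they encode no protein and do not move by their own enzymes.

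Levels are in TPM (transcripts scaled to a fixed sum per file), which the authors scaled over the repeat models of each file, so that 1 TPM stands for a share of repeat-derived signal and not of all testis RNA. TPM corrects for model length, which for a tandem repeat is the length of the entry and need not be that of a transcript. Each model came with the authors' lower and upper TPM bounds, called the deposited interval here. The 2 files held rebuilt totals of 666118 reads in horse and 679655 in dog, where a rebuilt read is TPM times the model length less 24 nt, divided by the value of 1 read. Ribosomal RNA took 72.1% of these reads in horse and 84.4% in dog, and shares of TPM or reads below leave it out unless said otherwise. This left 185665 reads on 983 models in horse and 105689 reads on 952 models in dog. With 1 library per species no difference has a replicate check, and no interval covers differences between animals. The exact intervals made here from rebuilt reads cover counting error only. In whole tissue, fewer cells of a type and less RNA per cell cannot be told apart.

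Satellite RNA was a visible part of the repeat signal in horse testis and a small part in dog testis. Satellites summed to 11704 TPM in horse and 920 TPM in dog, a horse over dog ratio of 12.7. With all deposited bounds added up against each other, this ratio ran from 8.84 to 16.8. Still by TPM, it was 21.1 without the satellite of highest TPM in each species and 27.8 without the one with most reads. Both settings also left out the dog satellite Bsp, which held 67.8% of dog satellite TPM, so the higher ratios partly reflect its loss. By rebuilt reads per non-rRNA read the ratio with all satellites was 22.2. As a share of non-rRNA TPM, satellites held 2.24% in horse and 0.188% in dog. As a share of non-rRNA rebuilt reads they held 5.39% in horse (10001 reads, exact Clopper-Pearson 95% interval 5.28 to 5.49%) and 0.243% in dog (257 reads, 0.214 to 0.275%). Without the satellite with most reads, the read share fell to 0.481% in horse (SAT2pl left out) and 0.0608% in dog (Bsp left out). The files carry different satellite models, so these sums compare what each file lists and not the same sequences.

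Set beside other repeat classes, satellites stood higher by reads than by TPM in both species. In horse they ranked 4th by reads, behind LINEs, SINEs and LTR elements, and 6th by TPM. Horse satellites held 10001 reads, against 2582 on the 202 DNA transposon models. SAT2pl alone had 9109 of the satellite reads, and the remaining horse satellites had 892, fewer than the DNA transposons. By TPM the order turned, with 11704 TPM for satellites and 12874 TPM for DNA transposons. In dog satellites ranked 7th by reads and 8th by TPM, with 257 satellite reads against 1473 on the 205 DNA transposon models. Simple repeats, the other tandem class, took 0.743% of non-rRNA TPM in horse and 2.65% in dog, so that satellites exceeded simple repeats in horse while simple repeats exceeded satellites in dog.

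**Figure D1:**
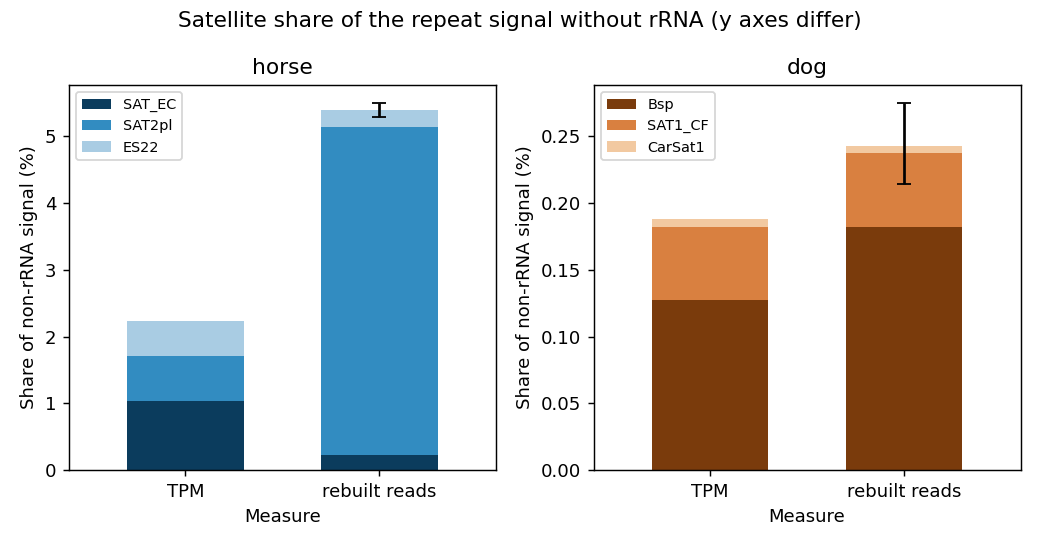
Share of the non-rRNA signal held by each satellite model (y axis, percent; the 2 panels have different scales) by TPM and by rebuilt reads (x axis), horse left and dog right, with stacked bars for the models above 0. Black bars are exact 95% intervals of the summed read share. In horse SAT_EC leads by TPM while SAT2pl fills most of the read bar, and in dog Bsp leads by both.

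Of the 5 horse satellites, 3 were above 0 TPM (60.0%), where 48.6% of all horse models, rRNA included, were. Of the 6 dog satellites, 3 were above 0 (50.0%), where 34.5% of all dog models, rRNA included, were. These are shares of very few models, and nothing is read from how they compare with the background. The median over all satellites, those at 0 included, was 2769 TPM in horse and 15.2 TPM in dog, and the median over all non-rRNA models was 0 in both files. Among models above 0 the median was 3480 TPM for horse satellites against 58.4 TPM for all non-rRNA horse models. In dog it was 265 TPM for satellites against 30.8 TPM for all non-rRNA models.

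SAT_EC was the satellite with the highest TPM in horse. Its model is 225 nt long, and it stood at 5455 TPM with a deposited interval of 4898 to 5931. It ranked 13th of 983 non-rRNA models, and its interval included the 5188 TPM of the next lower model, the L1 element L1-2B_EC. The next higher model, the L1 element L1-5_EC, stood at 6375 TPM with an interval of 6202 to 6420, above that of SAT_EC. The short SAT_EC model drew only 419 rebuilt reads, 0.226% of non-rRNA reads (0.205 to 0.248%), and ranked 52nd by reads.

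SAT2pl was the satellite with the most reads in horse. At 6872 nt its model is the 17th longest of the horse file, of the size of a full L1 element and far longer than the other satellite models. It had 3480 TPM with an interval of 3373 to 3519 and ranked 22nd by TPM. By reads it ranked 6th, with 9109 rebuilt reads, between L1-2B_EC with 11844 and the tRNA-derived SINE ERE1 with 8502. These were 4.91% of all non-rRNA reads (4.81 to 5.01%) and 91.1% of the satellite reads. Among the 51 non-rRNA horse models of at least 5000 nt, a limit chosen after the values were seen, 5 had a higher TPM than SAT2pl, and all 5 were L1 elements.

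ES22, the third horse satellite with signal, had a model of 471 nt. It stood at 2769 TPM with an interval of 2497 to 2996, which ranked 26th. It drew 473 rebuilt reads, 0.255% of non-rRNA reads (0.232 to 0.279%). The deposited TPM intervals of the 3 horse satellites above 0 did not overlap, so by TPM the order was SAT_EC, SAT2pl, ES22. By reads the order was SAT2pl, ES22, SAT_EC, where ES22 and SAT_EC overlapped, since the deposited bounds correspond to 427 to 512 reads for ES22 and 376 to 456 reads for SAT_EC.

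**Figure D2:**
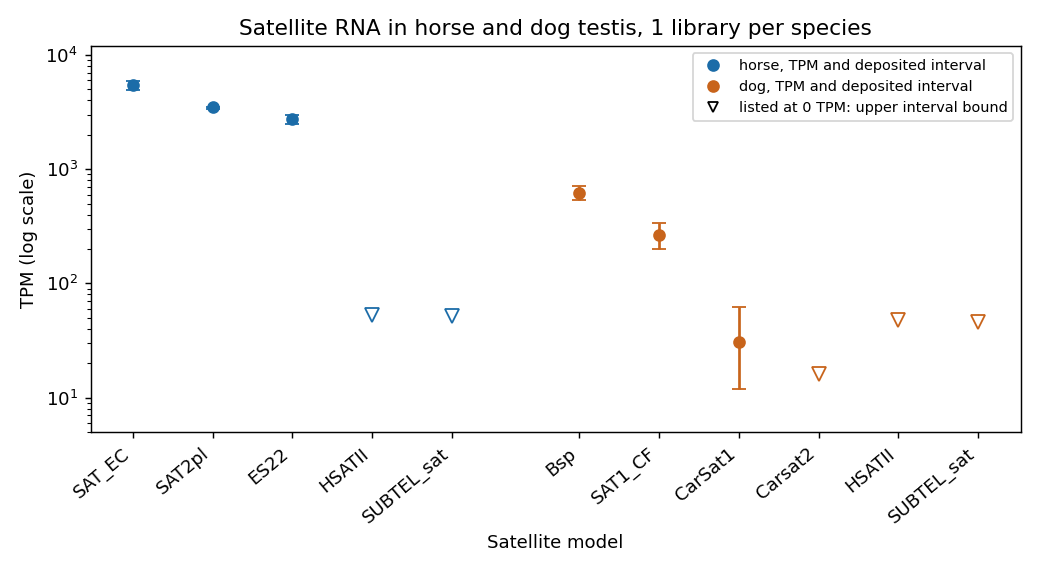
TPM of each satellite model (y axis, log scale), horse models left and dog models right, with bars for the deposited interval and 1 library per species. Open triangles are the upper interval bounds of models listed at 0 TPM. The 3 horse satellites above 0 sit between 2769 and 5455 TPM, above every dog satellite, and CarSat1 sits in the range of the open triangles.

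Bsp led the dog satellites by TPM and by reads. Its model is 741 nt long and stood at 624 TPM, with a deposited interval of 536 to 711. It ranked 38th of 952 non-rRNA models by TPM, between the L1 model L1_Carn7_orf2 at 695 TPM and the DNA transposon Tigger1 at 594 TPM, whose intervals both overlapped that of Bsp. It drew 193 rebuilt reads, 0.182% of non-rRNA reads (0.158 to 0.210%), which was 75.0% of the satellite reads in dog.

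SAT1_CF, with a model of 532 nt, was the next dog satellite. It stood at 265 TPM with an interval of 200 to 336, and ranked 59th. It drew 58.0 rebuilt reads, 22.6% of the dog satellite reads. Its interval did not overlap that of Bsp above it or that of CarSat1 below it.

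CarSat1, with a model of 500 nt, was close to the limit of what this depth can show. It stood at 30.5 TPM, about the median of dog models above 0, with an interval of 12.0 to 61.6 that was 163% as wide as the value itself. It rested on 6.25 rebuilt reads and ranked 164th. Its lower bound, which came to 2.45 reads, lay below the upper bounds of the 3 silent dog satellites. Its value lay above the 16.1 TPM bound of Carsat2 and below those of HSATII (47.4 TPM) and SUBTEL_sat (46.0 TPM). Such overlap alone does not settle whether they differ.

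The satellites also differed in how sharply they were measured, in step with their reads. The deposited interval was 4.19% as wide as the TPM for SAT2pl, 18.0% for ES22 and 18.9% for SAT_EC in horse. It was 27.9% for Bsp and 51.1% for SAT1_CF in dog. A counting interval on the rebuilt reads alone (exact Poisson, 95%) was of like width, with 8923 to 9298 reads for SAT2pl where the deposited bounds gave 8829 to 9211. For Bsp the counting interval was 167 to 222 reads and the deposited bounds gave 166 to 219.

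Of the silent satellites, HSATII and SUBTEL_sat are the only ones named alike in both files, and both were listed at 0 TPM in horse and in dog. HSATII carries the name of human satellite II, a family of pericentromeric heterochromatin in human whose transcripts are known from tumours, and SUBTEL_sat is named as a subtelomeric satellite. HSATII, with a model of 170 nt, had an upper bound of 53.3 TPM in horse and 47.4 TPM in dog. SUBTEL_sat, of 174 nt, had an upper bound of 51.7 TPM in horse and 46.0 TPM in dog. Each of these bounds corresponds to just under 3 reads, and a single read on HSATII would have stood at 17.9 TPM in horse and 15.9 TPM in dog.

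Carsat2, found in the dog file alone, was the third silent dog satellite. Its model of 456 nt gave a tighter limit of 16.1 TPM, below the 30.5 TPM at which the similarly named CarSat1 was listed and within CarSat1's interval. For any silent satellite, the floor of 3 reads is a share of 0.00162% of non-rRNA reads in horse and 0.00284% in dog, and the exact 95% interval of a count of 0 ends at 0.00199% in horse and 0.00349% in dog. HSATII and SUBTEL_sat had models of under 250 nt, as did SAT_EC, which was the highest horse satellite. Transposable element models of at most 250 nt were above 0 in 24 of 64 cases in horse (37.5%) and in 18 of 66 in dog (27.3%). Adding the classes other than rRNA, simple repeats, low-complexity models and satellites gave 33 of 138 in horse (23.9%). In dog this gave 27 of 144 (18.8%). The 250 nt limit was chosen after the values were seen, and whether length bears on the zeros was not tested.

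**Figure D3:**
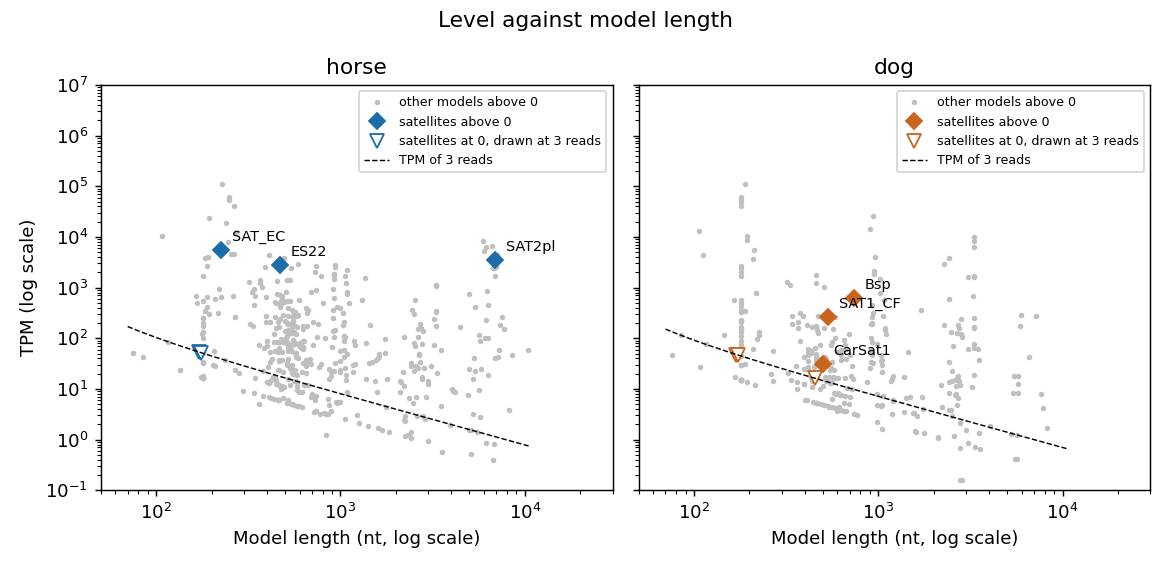
TPM (y axis, log scale) against model length in nt (x axis, log scale) for every non-rRNA model above 0, horse left and dog right, with satellites as diamonds. The dashed line is the TPM of 3 reads, and open triangles on it are the satellites listed at 0. SAT2pl stands apart from the other satellites in length, at 6872 nt, among the long L1 models of horse.

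Because HSATII and SUBTEL_sat had no reads, no satellite gave a horse over dog ratio for the same sequence. Of the 834 models named alike in both files, rRNA included, 364 had reads in either species. With a dog model at 0 set to the TPM of 3 reads, 54.1% of these were at least 2-fold higher in horse by TPM. Neither of the 2 satellites named alike was among the 364, so 0 passed this fold. What can be set side by side is the level of each species' own satellites. The lowest horse satellite above 0, ES22 at 2769 TPM, was 4.44 times the highest dog satellite, Bsp at 624 TPM. Their deposited intervals did not overlap. By share of non-rRNA reads these 2 lay closer, at 0.255% for ES22 (471 nt) and 0.182% for Bsp (741 nt). The read share of SAT_EC in horse (0.205 to 0.248%) overlapped that of Bsp in dog (0.158 to 0.210%). Total TPM of transposable elements was nearly level between the files, at 1.08 times the dog value in horse. Scaled to it, the ratio of summed satellite TPM was 11.8. Since TPM has a fixed sum per file, mostly rRNA and transposable elements, this scaling is no independent check of the ratio. By rebuilt reads, transposable elements were not level, with 174903 in horse and 103806 in dog.

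**Figure D4:**
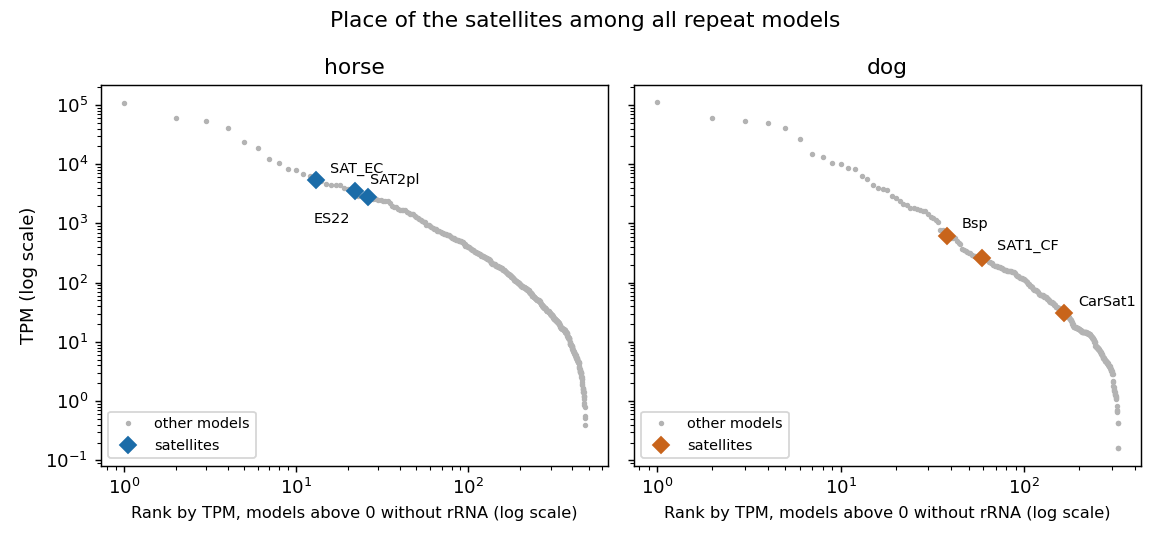
TPM (y axis, log scale) of the non-rRNA models above 0 in order of rank (x axis, log scale), horse left and dog right, with satellites as coloured diamonds. The horse satellites stand at ranks 13, 22 and 26 and the dog satellites at ranks 38, 59 and 164.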

How the data were processed

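Reads of the horse and dog mRNA libraries had been assigned to repeat models. Per the submitters' processing notes the tools were Bowtie and RSEM, with no version, and CanFam3.1 is the one build named, for horse as well. The model library, mRNA selection, read length and mapping settings were not stated there. Per the file headers, the authors deposited TPM with a lower and an upper bound, without the level of that interval. Divergent copies that fail to map to a model lower its TPM, and reads shared by similar models are divided by RSEM.

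Rebuilt reads are the product of TPM and the model length less 24 nt, over the lowest product that many models share (2616 TPM nt in horse, 39 models; 2322 in dog, 34 models). The upper bounds of models at 0 came to a median of 2.97 of these reads in both files. The rebuilding was run on simulated data made with the same 24 nt rule, which checks its arithmetic only. It cannot show whether 24 nt or the value of 1 read is right for the deposited files. Shares carry exact 95% binomial intervals, made with scipy 1.17.1 (Python 3.11.15). No test across models was run, since each species had 1 library. Members were chosen by class, and all are named. Members and lists were chosen with earlier results of these data known. Denominators, length offset, interval bounds and left-out models were varied. Small RNA was not searched, because no satellite is named by its repeat unit and no satellite sequence was used here.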

Additional observations from a re-analysis of the deposited data

How the results depend on the processing

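With rRNA kept in the denominator, satellites held 1.17% of TPM and 1.50% of rebuilt reads in horse, and 0.0920% and 0.0378% in dog. Over transposable elements alone the horse share of reads was 5.72%. At the lower and upper deposited bounds, the TPM share was 2.06% and 2.40% in horse, and 0.153% and 0.249% in dog. Without SAT_EC, the satellite of highest TPM, horse satellites held 1.19% of TPM and 5.16% of reads. Without SAT2pl, a choice made after seeing the data, they held 1.57% of TPM and 0.481% of reads. Without Bsp, the leader by both measures, dog satellites held 0.0606% of TPM and 0.0608% of reads. The horse over dog ratio of summed TPM was 21.1 without the satellite of highest TPM in each species and 27.8 without the one with most reads. The dog satellite left out was Bsp in both. As rebuilt reads per non-rRNA read, with all satellites, the ratio was 22.2. The settings behind 27.8 and 22.2 were added after seeing the data. The ratio was above 1 under each of these settings. The other 17 settings, length offsets of 0 and 25 nt among them, left values within their intervals and the count of satellites above 0 at 3 in each species. The count of satellites named alike past a 2-fold difference had no reads behind it and was 0 by construction. The planned ratio for each satellite named alike, its sum over these alone, and the search of small RNAs could not be run. Depth limits the silent and the weakest satellites. No paired analysis was possible because each species had 1 library.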

Other observations

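Some tandem repeats are filed as simple repeats, and the 2 given here were chosen after their values were seen. Whether their reads relate to the silent satellites was not tested. (CATTC)n, a unit of the kind that human satellites II and III are built from, had 16.8 TPM in horse (1 rebuilt read, interval 0.554 to 79.1) and 29.9 TPM in dog (2.01 reads, 4.45 to 95.1). (CCCTAA)n, the telomeric repeat of vertebrates, had 50.3 TPM in horse (3 reads, 11.6 to 131) and 149 TPM in dog (10 reads, 74.0 to 260). The intervals of the 2 species overlapped for both repeats.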
